A study of Homo sapiens with 12 samples.

Results

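The 46 genes described here encode the core machinery that copies DNA: the origin recognition complex, the factors that license origins, the MCM2-7 helicase and the proteins that activate it, the replicative polymerases, the sliding clamp with its loader, the single-strand binding complex RPA, the enzymes that join Okazaki fragments and a pair of fork proteins. They were listed by function, with earlier results of these data known, although the rule itself used no measured value, and all 46 were found among the 26475 gene symbols of the count table. All 46 passed the filter on low counts and were tested together with the other genes, 14582 in all. RNA was sequenced in 12 libraries of MIAPaCa2, an established cell line from a pancreatic ductal adenocarcinoma, with 3 libraries in each of 4 groups. Parental MIAPaCa2 cells received vehicle (labelled untreated) or the lactate dehydrogenase A inhibitor oxamate, and oxamate-resistant MIAPaCa2 cells received the same. The resistant cells were the mixed population that survived 4 weeks in 10 mM sodium oxamate, so the resistant groups represent 1 selection and share that history in both treatments. The labels do not say whether the 3 replicates of a group came from separate cultures, and p-values therefore measure the spread between these libraries, which may be technical.

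Replication runs in steps that use different members. In G1, the origin recognition complex, CDC6 and CDT1 load the MCM2-7 ring onto DNA, and geminin blocks CDT1 so that an origin is not loaded again in the same cycle. At the start of S phase the kinase CDC7 with its partner DBF4, together with MCM10, CDC45 and the GINS complex, turns the ring into a running helicase, after which polymerase alpha with primase starts each strand and polymerases delta and epsilon, held by PCNA, extend it. Many of these genes are transcribed as cells pass from G1 into S phase, under the control of E2F transcription factors, so their mRNA levels in a culture are known to follow both the growth state of the cells and the share of cells in S phase.

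The start regions of the members held an E2F motif more often than those of all genes, a feature that the choice of genes did not use. RefSeq windows on GRCh38.p14, from 250 bases before to 50 bases after a transcription start, were matched by symbol for 39 of the 46 members, which gave 50 windows. An E2F motif was searched on both strands with the letters TTTCCCGC, TTTCGCGC, TTTGCCGC and TTTGGCGC, some of which overlap when they lie on opposite strands of the same site. It was present in 20 of the 50 windows (40.0%), against 3.31% of all 35116 windows and 4.75% of the 15379 windows of genes tested for expression. Among members that were lower in resistant cells with vehicle, 16 of 39 windows (41.0%) held a match, and among the other members 4 of 11 (36.4%) did. The CCAAT box was present in 26 of 50 windows (52.0%), against 34.6% of all windows and 34.2% of the windows of genes tested for expression. It was present in 24 of 39 windows (61.5%) of the members lower in resistant cells with vehicle and in 2 of 11 (18.2%) of the others, which is given as a description, with no test. The letters TTTGAA, taken as the cell cycle homology region, were present in 1 of 50 (2.00%), against 15.2% of all windows and 10.4% of the windows of genes tested for expression. These matches describe letters in these windows and not bound sites. The 250 bases upstream of the start are given, 5′ to 3′ on the strand of the gene and with E2F matches in capitals, for the members with the smallest p in the vehicle comparison that had a match upstream of the start, and for TIPIN, which was the member most raised in resistant cells with vehicle. They lie at chr7:100101398-100101647 (-) for MCM7, chr16:88803539-88803788 (+) for CDT1, chr2:135876444-135876693 (-) for MCM6, chr20:5126623-5126872 (-) for PCNA and chr15:66356686-66356935 (-) for TIPIN.
MCM7: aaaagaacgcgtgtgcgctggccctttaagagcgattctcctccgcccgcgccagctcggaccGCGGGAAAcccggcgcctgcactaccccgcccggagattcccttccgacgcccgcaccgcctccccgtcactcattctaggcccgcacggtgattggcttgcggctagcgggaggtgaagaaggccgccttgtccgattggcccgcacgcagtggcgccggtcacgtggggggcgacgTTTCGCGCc
CDT1: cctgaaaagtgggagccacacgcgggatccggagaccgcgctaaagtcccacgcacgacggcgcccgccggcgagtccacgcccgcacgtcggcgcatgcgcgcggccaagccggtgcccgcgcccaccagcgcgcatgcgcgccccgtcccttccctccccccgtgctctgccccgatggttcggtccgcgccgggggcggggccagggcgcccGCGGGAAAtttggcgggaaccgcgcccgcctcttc
MCM6: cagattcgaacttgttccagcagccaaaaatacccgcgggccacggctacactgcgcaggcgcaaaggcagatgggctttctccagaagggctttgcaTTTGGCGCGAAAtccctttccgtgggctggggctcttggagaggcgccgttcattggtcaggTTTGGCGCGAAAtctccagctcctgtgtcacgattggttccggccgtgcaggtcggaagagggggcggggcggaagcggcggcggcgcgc
PCNA: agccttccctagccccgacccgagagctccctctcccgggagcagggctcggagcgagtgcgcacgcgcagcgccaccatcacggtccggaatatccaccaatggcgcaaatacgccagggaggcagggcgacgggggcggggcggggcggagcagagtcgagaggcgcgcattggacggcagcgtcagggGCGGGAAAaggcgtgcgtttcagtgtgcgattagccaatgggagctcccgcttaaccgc
TIPIN: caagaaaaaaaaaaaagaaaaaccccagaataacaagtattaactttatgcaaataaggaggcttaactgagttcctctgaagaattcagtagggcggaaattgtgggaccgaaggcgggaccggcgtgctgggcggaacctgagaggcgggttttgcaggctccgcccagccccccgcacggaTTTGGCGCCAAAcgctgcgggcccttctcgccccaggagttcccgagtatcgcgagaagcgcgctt
All of these windows were chosen to hold a match, so they say nothing of how common the motif was. In MCM6 and TIPIN the match was read on both strands of the same site.

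Levels are given as CPM, the expected counts scaled to a common library total after TMM, a factor that assumes most genes unchanged. The libraries held 46698729 to 114222169 expected counts in total, and every parental library was deeper than every resistant library. A count of 3, taken as the floor, corresponds to between 0.0283 and 0.0581 CPM, for counting error only, and no member was near it. KRT8 (671 to 1601 CPM) and VIM (5917 to 10110 CPM) were present in all libraries, and CDKN2A, CDKN2B and MTAP, which MIAPaCa2 lacks, were at 0 in all. Of 13 markers of leukocytes, endothelium, fibroblasts and normal pancreas, 12 were under 1 CPM in all libraries, with the leukocyte genes PTPRC and CD3E at 3 counts or fewer, and CD68 stood at 56.4 to 220.2 CPM, with a leukocyte sum of 156 to 164 CPM and 59.4 to 63.0 CPM in parental and resistant cells with vehicle and of 211 to 220.2 CPM and 56.4 to 58.9 CPM with oxamate. The summed level of 4 nuclear-retained RNAs (MALAT1, NEAT1, KCNQ1OT1 and MIAT) was 321 to 357 CPM in parental cells with vehicle, 544 to 1187 CPM in parental cells with oxamate, 534 to 1112 CPM in resistant cells with vehicle and 1080 to 1407 CPM in resistant cells with oxamate. Replicate 3 of the parental oxamate group (1187 CPM) and replicate 3 of the resistant vehicle group (1112 CPM) stood apart from their groups in this sum. The counts below are those of all 12 libraries, and the numbers called without both of these libraries are given beside them.

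Relative to the bulk of genes, resistant cells held lower mRNA levels of most members than parental cells, with vehicle and with oxamate. With vehicle, 38 of the 46 members (82.6%) were lower in resistant cells and 3 (6.52%) were higher at an adjusted p under 0.05 (edgeR's quasi-likelihood F test, adjusted by Benjamini and Hochberg's method over all 14582 genes), and the other 5 were not called. Of all genes tested, 75.7% were called, 37.3% lower and 38.4% higher, so the share of members that were lower exceeded the background. The median log2 fold change of the members was -0.46 (0.728-fold), against 0.025 over all genes, and single members ran from -0.99 to 0.38. With oxamate, 35 members (76.1%) were lower and 7 (15.2%) were higher, where 80.3% of all genes were called, 39.7% lower and 40.6% higher. The median was then -0.31 (0.807-fold), against 0.015 over all genes, with a range of -1.06 to 0.62. The replicates of the groups did not overlap for 38 members in the lower and 3 in the higher direction with vehicle (37.9% and 39.7% of all genes) and for 35 and 7 with oxamate (40.3% and 40.9%). In these bulk libraries, fewer cells in S phase and less RNA of these genes per cell cannot be told apart.

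The vehicle and oxamate comparisons share no library, but both set the same selected population against the same parental line. They are therefore no independent repeat of each other. A total of 35 members were lower in both and 3 (ORC2, ORC4 and TIPIN) were higher in both. The share of all genes lower or higher in both was not counted, so these counts have no background beside them. GINS4, RFC1 and RPA2 were lower with vehicle and not called with oxamate, and ORC5, CDC7, DBF4 and GINS3 were not called with vehicle and higher with oxamate. POLA2 was called in neither. At the threshold of the study, an unadjusted p under 0.05 with a fold change over 1.5, the members called were 13 lower and 0 higher with vehicle, where 6.14% of all genes were lower and 17.2% higher. With oxamate they were 13 lower and 1 higher, where 11.4% and 22.9% of all genes were. With the 2 libraries that stood apart from their groups in nuclear RNA left out, 41 members were called in each comparison. The medians were then -0.45 and -0.33. The resistant oxamate libraries, whose summed nuclear RNA was 1080 to 1407 CPM, were kept. These fits therefore did not even out nuclear RNA between the groups. In both comparisons 3 of the 4 nuclear-retained RNAs were higher in resistant cells, and their part in the lower levels of the members was not tested. The member median of each library, as a log2 ratio to the parental vehicle mean, was between -0.47 and -0.44 in the resistant vehicle group and between -0.36 and -0.35 in the resistant oxamate group, so neither group owed its median to a single library.

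These splits depended on the scaling. When libraries were scaled by their totals alone, without TMM factors, the median of all genes moved up by 0.22 with vehicle and by 0.32 with oxamate, to 0.24 and 0.34. The members were then split 29 lower and 9 higher with vehicle, with a median of -0.24, and 17 lower and 16 higher with oxamate, with a median of 0.015. Of all 14582 genes, 2769 were then called lower and 8540 higher with vehicle, and 2819 and 9133 with oxamate. RLE factors left the members at 38 lower and 3 higher with vehicle and at 35 and 7 with oxamate. Upper-quartile factors gave 35 and 6 with vehicle and 31 and 8 with oxamate. The fold changes reported here are therefore relative to the bulk of genes.

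**Figure D1:**
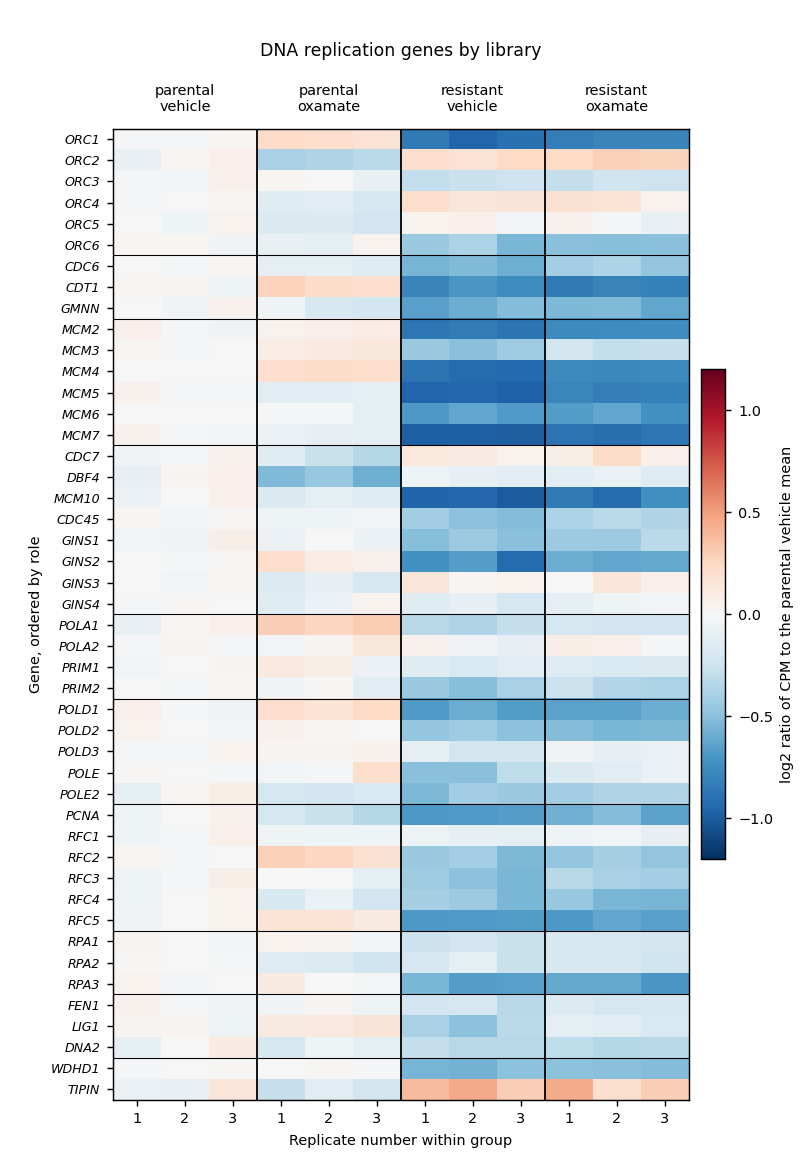
Level of each of the 46 members (rows, ordered by role) in each of the 12 libraries (columns, by group and replicate number), as the log2 ratio of its CPM to the mean of the 3 parental vehicle libraries; blue is lower and red is higher. The resistant columns are blue for most members in every replicate, with ORC2, ORC4 and TIPIN among the few rows above the parental vehicle level.

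**Figure D2:**
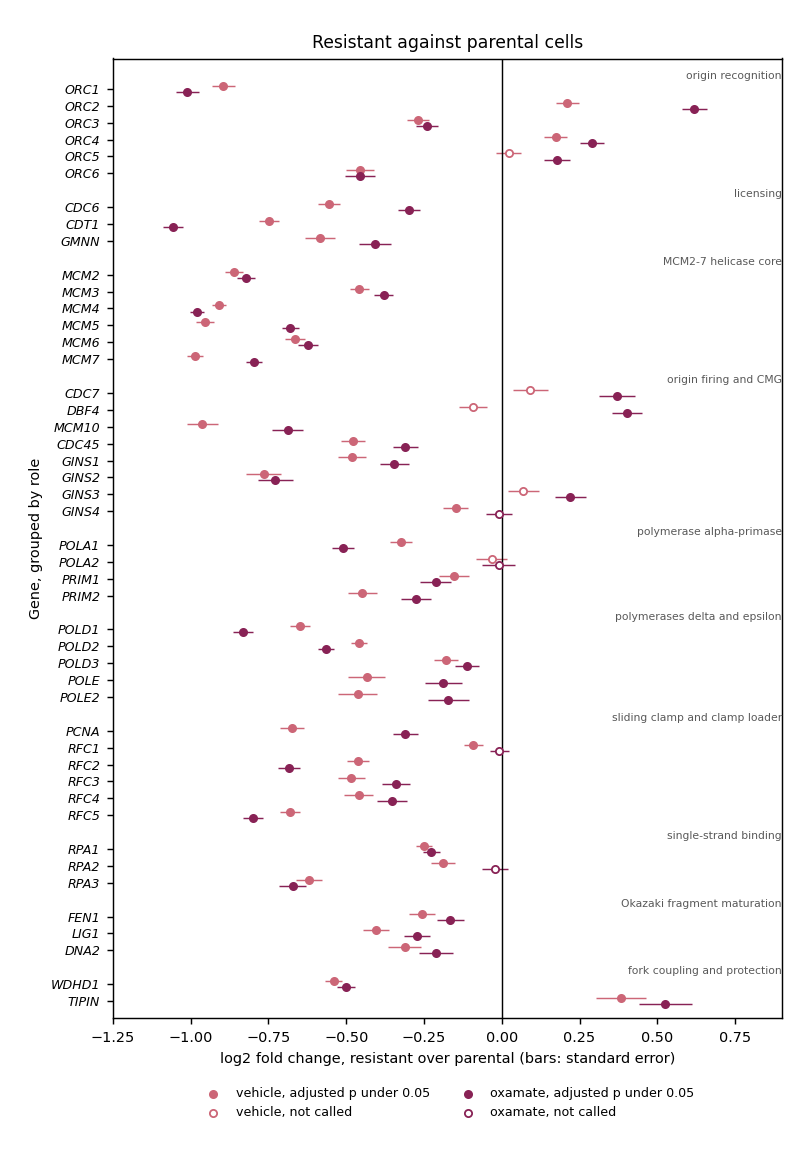
Log2 fold change of each member in resistant against parental cells (horizontal axis), with vehicle in light red and with oxamate in dark red; bars are standard errors of the fit, filled points passed an adjusted p under 0.05 and open points did not. With vehicle 38 filled points lie left of 0 and 3 right of it, and with oxamate 35 and 7.

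The MCM2-7 ring, the core of the helicase, carried the lowest median of the roles with vehicle. All 6 subunits were lower in resistant cells with vehicle (median log2 fold change -0.88) and with oxamate (-0.74). Scaled by library size alone, all 6 were still called lower with vehicle (median -0.66), and 5 were with oxamate (-0.41), where MCM3 stood at -0.055 and was not called. MCM4, the subunit with the smallest p, is encoded at chromosome 8:47960185-47978160 (+) of GRCh38 (GENCODE 29). Its level was 171, 172 and 172 CPM in the 3 parental vehicle libraries and 93.6, 90.6 and 90.0 CPM in the resistant vehicle libraries. With oxamate it was 197, 199 and 199 CPM in parental and 101, 100.1 and 101 CPM in resistant cells. Every resistant library was thus below every parental library, and the log2 fold changes (± SE of the fit, as in all values of this form) were -0.91 ± 0.022, adjusted p = 1.30e-14 with vehicle and -0.98 ± 0.022, adjusted p = 2.57e-15 with oxamate. MCM7 had the largest fall with vehicle (-0.99 ± 0.026, adjusted p = 2.57e-14), from 410.4 ± 13.7 CPM (mean ± SD, n = 3, as in all values of this form) to 207 ± 0.765 CPM, and fell by 0.80 on the log2 scale with oxamate. MCM5 (-0.95 ± 0.028), MCM2 (-0.86 ± 0.028) and MCM6 (-0.67 ± 0.032) followed with vehicle, and MCM3 was the least changed (-0.46 ± 0.030, adjusted p = 1.07e-09), from 58.5 ± 0.918 to 42.6 ± 1.11 CPM. The subunits form a ring in equal numbers, yet their mRNAs did not fall by the same factor. The gene span of MCM7 overlaps that of AP4M1 on the opposite strand, and the counting is not stated to use strand. Whether their exons overlap was not examined, and reads from any shared exon stretch could not be told apart.

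In the origin recognition complex, which marks origins throughout the cycle, the subunits moved in different directions. ORC1, ORC3 and ORC6 were lower in both comparisons, ORC2 and ORC4 were higher in both, and ORC5 was higher with oxamate and not called with vehicle. ORC1, the subunit whose level is known to change through the cell cycle, is encoded at chromosome 1:52372829-52404459 (-). It stood at 23.5, 23.5 and 24.1 CPM in parental and 13.1, 12.3 and 12.8 CPM in resistant cells with vehicle. With oxamate it stood at 27.8, 27.5 and 26.7 CPM in parental and 13.3, 13.6 and 13.7 CPM in resistant cells. The resistant values did not overlap the parental ones (-0.90 ± 0.037, adjusted p = 4.58e-12 with vehicle and -1.01 ± 0.037, adjusted p = 5.75e-13 with oxamate). ORC2, encoded at chromosome 2:200908973-200963680 (-), had the opposite pattern, with 29.8, 32.1 and 32.9 CPM in parental and 36.4, 35.7 and 37.4 CPM in resistant cells with vehicle (0.21 ± 0.037, adjusted p = 9.30e-05). With oxamate, ORC2 stood at 24.2, 24.5 and 25.2 CPM in parental and 37.2, 38.4 and 38.0 CPM in resistant cells (0.62 ± 0.039, adjusted p = 3.92e-10), and it was the only member past the threshold of the study in the higher direction. ORC4 rose from 35.7 ± 0.547 to 40.2 ± 1.00 CPM with vehicle (0.17 ± 0.037, adjusted p = 0.000581) and was higher, with a log2 fold change of 0.29 ± 0.039 with oxamate. ORC5 was not called with vehicle, at 29.6 ± 0.915 and 30.0 ± 1.01 CPM (0.022 ± 0.040, adjusted p = 0.620), and differed with oxamate by 0.18 ± 0.042, adjusted p = 0.00109. ORC6 was lower to a like degree in both comparisons (-0.46 ± 0.046 and -0.46 ± 0.048), and ORC3 by less (-0.27 ± 0.035 and -0.24 ± 0.036). With library size alone ORC1, ORC2, ORC4 and ORC6 kept their directions, ORC3 was not called with vehicle (-0.050) and was called higher with oxamate (0.085), and ORC5 was called higher in both.

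The 3 licensing factors were lower in both comparisons. CDT1, which brings the MCM ring to the origin, is encoded at chromosome 16:88803213-88809258 (+). It was at 202, 203 and 192 CPM in parental and 115, 123 and 118 CPM in resistant cells with vehicle (-0.75 ± 0.031, adjusted p = 5.71e-12). With oxamate it was at 241, 231 and 229 CPM in parental and 110.4, 114 and 113 CPM in resistant cells (-1.06 ± 0.032, adjusted p = 5.35e-14), the largest fall of any member in that comparison. Geminin (GMNN), which inhibits the CDT1 protein, fell from 27.2 ± 0.881 to 18.1 ± 0.807 CPM with vehicle (-0.58 ± 0.049, adjusted p = 1.98e-08) and was lower, with a log2 fold change of -0.41 ± 0.050 with oxamate. CDC6, the ATPase that helps to load the ring, fell from 29.3 ± 0.460 to 20.0 ± 0.371 CPM with vehicle (-0.56 ± 0.035) and was lower, with a log2 fold change of -0.30 ± 0.036 with oxamate. Under scaling by totals, all 3 were still called lower with vehicle, and only CDT1 was with oxamate, where GMNN stood at -0.082 and CDC6 at 0.025.

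The factors that fire origins and complete the CMG helicase (CDC45, MCM2-7 and GINS) were split. MCM10, needed to activate the loaded ring, is encoded at chromosome 10:13161554-13211104 (+) and was at 21.3, 22.3 and 23.3 CPM in parental and 11.5, 11.6 and 11.1 CPM in resistant cells with vehicle (-0.96 ± 0.049, adjusted p = 5.94e-11). With oxamate MCM10 was at 19.8, 20.6 and 20.1 CPM in parental and 12.4, 11.7 and 13.4 CPM in resistant cells (-0.69 ± 0.051, adjusted p = 2.46e-09), again without overlap. Within GINS, a complex of 4 different subunits, the mRNAs parted: GINS2 (-0.77 ± 0.055 with vehicle, -0.73 ± 0.056 with oxamate) and GINS1 (-0.48 ± 0.045 and -0.35 ± 0.046) were lower in both comparisons, and GINS4 was lower with vehicle and not called with oxamate (-0.15 ± 0.041, adjusted p = 0.00388, and -0.010 ± 0.042, adjusted p = 0.834 with oxamate). GINS3 was not called with vehicle (0.069 ± 0.049, adjusted p = 0.205) and was higher with oxamate (0.22 ± 0.051, adjusted p = 0.000909). CDC45 was lower, with a log2 fold change of -0.48 ± 0.039 with vehicle and -0.31 ± 0.040 with oxamate. The kinase pair did not follow the helicase. CDC7 was at 11.6 ± 0.389 and 12.4 ± 0.386 CPM with vehicle (0.092 ± 0.056, adjusted p = 0.143), and at 10.5, 9.67 and 9.20 against 12.2, 13.5 and 12.2 CPM with oxamate (0.37 ± 0.059, adjusted p = 2.48e-05). DBF4 was at 28.8 ± 1.63 and 27.0 ± 0.705 CPM with vehicle (-0.092 ± 0.045, adjusted p = 0.0744), and at 20.0, 21.1 and 19.2 against 26.3, 27.3 and 25.9 CPM with oxamate (0.40 ± 0.048, adjusted p = 9.01e-07). For both kinase genes the parental oxamate group had the lowest mean of the 4 groups. Leaving out parental vehicle replicate 1 brought DBF4 with vehicle past the threshold (adjusted p = 0.00851). With library size alone CDC7, GINS3 and DBF4 were called higher in both comparisons, GINS4 was not called with vehicle (0.070) and was called higher with oxamate (0.31), CDC45 was not called with oxamate (0.014), and MCM10 and GINS2 were called lower in both.

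**Figure D3:**
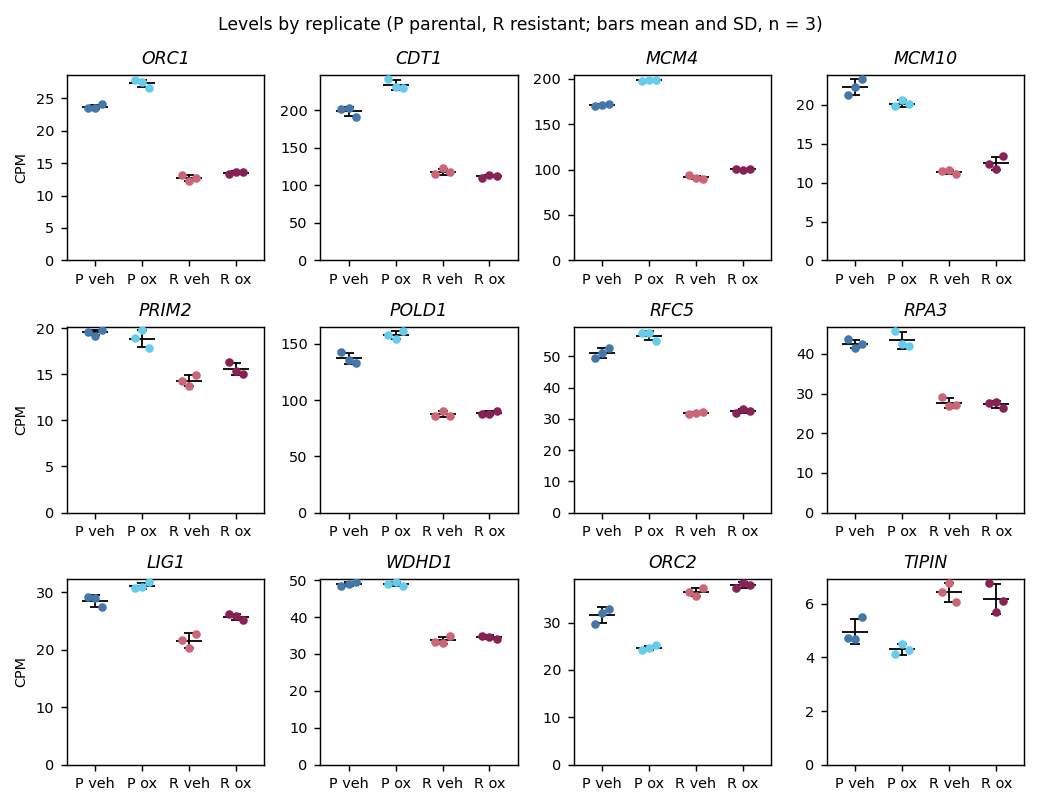
Level in CPM (vertical axis, from 0) of 12 members in the 3 libraries of each group: the member with the smallest p of each role in the vehicle comparison, plus ORC2 and TIPIN. Points are libraries and bars are the mean and SD (n = 3). Of the first 10 genes every resistant library lies below every parental library, and for ORC2 and TIPIN every resistant library lies above.

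The polymerases were lower in the resistant cells to unequal degrees. POLD1, the catalytic subunit of polymerase delta, encoded at chromosome 19:50384204-50418016 (+), was at 143, 136 and 133 CPM in parental and 85.8, 90.6 and 86.0 CPM in resistant cells with vehicle (-0.65 ± 0.032, adjusted p = 3.47e-11). With oxamate it was at 158, 154 and 161 CPM in parental and 88.0, 87.6 and 90.5 CPM in resistant cells (-0.83 ± 0.032, adjusted p = 9.54e-13). Its partner subunit POLD2 was lower, with a log2 fold change of -0.46 ± 0.026 with vehicle and -0.56 ± 0.026 with oxamate, and the accessory subunit POLD3 with -0.18 ± 0.038, adjusted p = 0.000471 and -0.11 ± 0.039, adjusted p = 0.0145; the oxamate call of POLD3 was lost without resistant oxamate replicate 2 (adjusted p = 0.0552). POLE, the catalytic subunit of polymerase epsilon, was at 88.0, 87.3 and 86.5 CPM in parental and 61.7, 61.6 and 70.5 CPM in resistant cells with vehicle, with replicate 3 of the resistant group the highest of that group, and the fold change was -0.43 ± 0.059. With oxamate POLE was lower, with a log2 fold change of -0.19 ± 0.059, and parental replicate 3 stood above the others (85.5, 85.9 and 101 CPM). POLE2, its second subunit, was lower, with a log2 fold change of -0.46 ± 0.064 with vehicle and of -0.17 ± 0.067, adjusted p = 0.0276 with oxamate, a call that was lost without parental oxamate replicate 3 or resistant oxamate replicate 1 (adjusted p up to 0.0847). Of polymerase alpha with primase, which lays down the first primer, POLA1 was lower (-0.32 ± 0.035 and -0.51 ± 0.035, adjusted p = 1.15e-09). POLA2 did not differ beyond its error (-0.032 ± 0.051, adjusted p = 0.571 with vehicle and -0.010 ± 0.052, adjusted p = 0.865 with oxamate). PRIM2, the large primase subunit, encoded at chromosome 6:57314805-57646849 (+), was at 19.6, 19.2 and 19.8 CPM in parental and 14.3, 13.7 and 14.9 CPM in resistant cells with vehicle (-0.45 ± 0.046, adjusted p = 2.48e-07). With oxamate PRIM2 was at 19.0, 19.8 and 17.9 CPM in parental and 16.3, 15.4 and 15.1 CPM in resistant cells (-0.28 ± 0.048), and PRIM1, the catalytic primase subunit, changed less (-0.15 ± 0.048 and -0.21 ± 0.049). Without TMM factors, POLD1 and POLD2 were called lower in both comparisons and POLA1 was too, POLA2 was called higher in both (0.19 and 0.31), and POLD3 and PRIM1 were not called with vehicle (0.040 and 0.066) and were called higher with oxamate (0.21 and 0.11). POLE (0.14), POLE2 (0.15) and PRIM2 (0.049) were then not called with oxamate.

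PCNA, the ring that holds the polymerases on DNA, fell from 68.1 ± 2.37 to 42.6 ± 0.426 CPM with vehicle (-0.67 ± 0.038, adjusted p = 1.70e-10) and from 56.5 ± 2.53 to 45.6 ± 1.86 CPM with oxamate (-0.31 ± 0.039). Its loader, replication factor C, showed a gradient. RFC5, encoded at chromosome 12:118013588-118033130 (+), was at 49.6, 51.2 and 52.6 CPM in parental and 31.7, 31.8 and 32.1 CPM in resistant cells with vehicle (-0.68 ± 0.031, adjusted p = 1.79e-11). With oxamate RFC5 was at 57.4, 57.6 and 54.9 CPM in parental and 31.8, 33.2 and 32.6 CPM in resistant cells (-0.80 ± 0.032, adjusted p = 1.48e-12). RFC2, RFC3 and RFC4 were lower, with log2 fold changes of -0.46 ± 0.035, -0.48 ± 0.044 and -0.46 ± 0.046 with vehicle and of -0.68 ± 0.036, -0.34 ± 0.045 and -0.35 ± 0.048 with oxamate. RFC1, the large subunit, was the least changed, at 88.8 ± 3.51 and 83.2 ± 1.42 CPM with vehicle (-0.092 ± 0.030, adjusted p = 0.0115) and -0.0075 ± 0.031, adjusted p = 0.830 with oxamate, and its vehicle call was lost without parental vehicle replicate 3 (-0.063, adjusted p = 0.0547). With library size alone RFC1 was called higher in both (0.13 and 0.32), PCNA stood at 0.015, RFC3 at -0.017 and RFC4 at -0.027 with oxamate, and RFC2 and RFC5 were called lower in both.

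RPA, which coats single-stranded DNA at the fork, is built of 3 subunits. RPA3, the smallest, encoded at chromosome 7:7636518-7718607 (-), was at 43.7, 41.5 and 42.4 CPM in parental and 29.2, 26.9 and 27.1 CPM in resistant cells with vehicle (-0.62 ± 0.042, adjusted p = 1.58e-09). With oxamate RPA3 was at 45.9, 42.4 and 42.0 CPM in parental and 27.7, 27.8 and 26.3 CPM in resistant cells (-0.67 ± 0.043, adjusted p = 4.15e-10). RPA1 was lower, with a log2 fold change of -0.25 ± 0.026 and -0.23 ± 0.027. RPA2 was lower with vehicle (-0.19 ± 0.039, adjusted p = 0.000411) and not called with oxamate (-0.021 ± 0.041, adjusted p = 0.647). On library size alone, only RPA3 was called lower, and RPA1 and RPA2 were not called with vehicle (-0.032 and 0.030) and were called higher with oxamate (0.099 and 0.30). The gene span of RPA3 overlaps that of UMAD1 and the span of RPA1 that of SMYD4. Whether exons overlap was not examined, so it is not known whether their counts hold reads of those genes.

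Among the enzymes that finish Okazaki fragments, the DNA ligase LIG1, encoded at chromosome 19:48115445-48170603 (-), was at 29.1, 29.1 and 27.4 CPM in parental and 21.7, 20.3 and 22.8 CPM in resistant cells with vehicle (-0.40 ± 0.042, adjusted p = 2.78e-07). With oxamate LIG1 was at 30.7, 30.8 and 31.7 CPM in parental and 26.2, 25.9 and 25.2 CPM in resistant cells (-0.27 ± 0.042). The flap endonuclease FEN1 (-0.26 ± 0.042 and -0.17 ± 0.043, adjusted p = 0.00223) and the nuclease and helicase DNA2 (-0.31 ± 0.052, adjusted p = 5.08e-05 and -0.21 ± 0.054) changed less. With library size alone only LIG1 with vehicle was called lower (-0.18), and with oxamate FEN1 was called higher (0.16) and LIG1 (0.052) and DNA2 (0.11) were not called.

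The pair of fork proteins went opposite ways. WDHD1, which ties the helicase to polymerase alpha, is encoded at chromosome 14:54938950-55027105 (-) and was at 48.5, 49.0 and 49.4 CPM in parental and 33.3, 33.1 and 34.7 CPM in resistant cells with vehicle (-0.54 ± 0.028, adjusted p = 6.86e-11). With oxamate it was at 49.0, 49.5 and 48.3 CPM in parental and 34.9, 34.7 and 34.0 CPM in resistant cells (-0.50 ± 0.029, adjusted p = 1.05e-10). TIPIN, a partner of TIMELESS in the complex that protects forks, is encoded at chromosome 15:66336206-66386746 (-) and was at 4.72, 4.68 and 5.50 CPM in parental and 6.46, 6.79 and 6.08 CPM in resistant cells with vehicle (0.38 ± 0.080, adjusted p = 0.000415). With oxamate TIPIN was at 4.11, 4.51 and 4.27 CPM in parental and 6.77, 5.69 and 6.09 CPM in resistant cells (0.53 ± 0.085, adjusted p = 3.11e-05). The groups did not overlap for either gene, and both kept their direction with library size alone.

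Members also differed in how much of their mRNA was present, which was compared only per kilobase of the principal transcript in parental cells with vehicle. MCM7 (139 CPM per kb) and POLD2 (120.3 CPM per kb) stood highest, followed by RFC2 (62.2), CDT1 (61.4), MCM2 (51.2) and PCNA (50.1 CPM per kb). TIPIN (2.85), CDC7 (3.51) and POLE2 (3.65 CPM per kb) stood lowest. The subunits of the MCM ring spread from 18.2 CPM per kb for MCM3 and 19.0 CPM per kb for MCM5 to that of MCM7.

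Ratios between members within a library do not depend on the scaling, and several were taken after the values had been seen. An exact two-sided permutation test of 3 against 3 libraries cannot give a p below 0.1. The ratio of ORC1 to ORC2, each per kilobase, was 1.08, 1.00 and 0.999 in parental cells with vehicle and 0.493, 0.470 and 0.467 in resistant cells with vehicle. With oxamate it was 1.57, 1.53 and 1.45 in parental cells and 0.489, 0.485 and 0.491 in resistant cells. Resistant cells thus held less ORC1 for each ORC2 mRNA, 0.464-fold with vehicle and 0.322-fold with oxamate, without overlap (exact permutation p = 0.1 in each, the smallest possible). The summed MCM2-7 level over the summed ORC1 to ORC6 level was 4.13, 3.98 and 3.87 in parental and 2.51, 2.50 and 2.54 in resistant cells with vehicle, and 4.19, 4.20 and 4.20 in parental and 2.71, 2.69 and 2.75 in resistant cells with oxamate. The helicase mRNAs were therefore lower relative to the origin complex in resistant cells, 0.630-fold with vehicle and 0.647-fold with oxamate (exact permutation p = 0.1 in each). CDT1 over its inhibitor GMNN was 2.90, 2.99 and 2.65 in parental and 2.58, 2.65 and 2.41 in resistant cells with vehicle, which overlapped (exact permutation p = 0.2). With oxamate the same ratio was 3.58, 3.77 and 3.84 in parental and 2.29, 2.35 and 2.49 in resistant cells, 0.637-fold (exact permutation p = 0.1). In total 5 ratios were compared in 4 comparisons each, and none can pass an adjustment in this design.

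Oxamate moved single members in parental cells, in either direction and by small amounts. Of the 46 members, 25 (54.3%) were called, 15 lower and 10 higher with oxamate, where 58.7% of all genes were called, 30.4% lower and 28.3% higher. The number of members called was thus near the background. The median log2 fold change was -0.046, against 0.0030 over all genes, with a range of -0.52 to 0.29, and none passed the threshold of the study, where 4.19% of all genes were lower and 5.69% higher. Under library-size scaling, 29 were lower and 7 higher, with a median of -0.12, where 5922 of all 14582 genes were lower and 2853 higher. The replicates did not overlap for 19 members in the lower and 10 in the higher direction (31.9% and 29.6% of all genes). Without the 2 libraries that stood apart from their groups in nuclear RNA, 26 were called and the median was -0.023. All 4 nuclear-retained RNAs were higher with oxamate in parental cells (median log2 fold change 1.26), and their part in the changes of the members was not tested.

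The members that fell with oxamate in parental cells were led by the firing kinase. DBF4 went from 26.9, 29.4 and 30.0 CPM to 20.0, 21.1 and 19.2 CPM, without overlap (-0.52 ± 0.046, adjusted p = 1.20e-07), and CDC7 from 11.6 ± 0.389 to 9.79 ± 0.656 CPM (-0.25 ± 0.057). ORC2 fell from 31.6 ± 1.64 to 24.6 ± 0.518 CPM (-0.35 ± 0.039, adjusted p = 1.12e-06) and PCNA from 68.1 ± 2.37 to 56.5 ± 2.53 CPM (-0.27 ± 0.037, adjusted p = 1.26e-05). RPA2 (-0.19 ± 0.039, adjusted p = 0.000706), ORC5 (-0.19 ± 0.040), ORC4 (-0.16 ± 0.038), RFC4 (-0.17 ± 0.045), POLE2 (-0.20 ± 0.063) and GMNN (-0.16 ± 0.047, adjusted p = 0.0103) fell as well, the last of these not without parental oxamate replicate 3 (adjusted p = 0.0534). CDC6, MCM5, MCM7, MCM10 and GINS3 fell by 0.091 to 0.15 on the log2 scale, of which MCM10 lost its call without parental vehicle replicate 3 or parental oxamate replicate 1 and GINS3 without parental oxamate replicate 3.

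The members that rose with oxamate in parental cells belonged to several roles. POLA1 rose from 60.3, 65.0 and 66.9 CPM to 78.7, 76.8 and 79.2 CPM, without overlap (0.29 ± 0.034, adjusted p = 2.56e-06). RFC2 rose from 105 ± 1.67 to 124 ± 4.67 CPM (0.24 ± 0.035, adjusted p = 2.30e-05), CDT1 from 199 ± 6.21 to 234 ± 6.47 CPM (0.23 ± 0.031, adjusted p = 8.31e-06) and MCM4 from 171 ± 0.735 to 198 ± 0.987 CPM (0.21 ± 0.022, adjusted p = 6.14e-07). ORC1 (0.20 ± 0.034, adjusted p = 9.29e-05), POLD1 (0.20 ± 0.031, adjusted p = 4.13e-05), RFC5 (0.15 ± 0.030, adjusted p = 0.000522) and MCM3 (0.11 ± 0.029) rose too. LIG1 (0.12 ± 0.041, adjusted p = 0.0165) and MCM2 (0.065 ± 0.027, adjusted p = 0.0482) were called but not stable: LIG1 lost its call without parental vehicle replicate 3 or parental oxamate replicate 3 (adjusted p up to 0.0687), and MCM2 without replicate 2 or 3 of either group (adjusted p up to 0.179) and turned to -0.0094 with library size alone. Subunits of the same complex therefore differed in parental cells with oxamate, with ORC1 higher and ORC2, ORC4 and ORC5 lower, and with MCM2, MCM3 and MCM4 higher and MCM5 and MCM7 lower. WDHD1 (-0.0019 ± 0.027, adjusted p = 0.958), ORC3 (-0.017 ± 0.035, adjusted p = 0.704), MCM6 (-0.050 ± 0.031, adjusted p = 0.178), GINS1 (-0.047 ± 0.044, adjusted p = 0.375), PRIM1 (0.044 ± 0.047, adjusted p = 0.439), POLE (0.060 ± 0.057, adjusted p = 0.390), RFC3 (-0.033 ± 0.043, adjusted p = 0.533), RPA1 (0.016 ± 0.026, adjusted p = 0.615), FEN1 (-0.027 ± 0.041, adjusted p = 0.588) and TIPIN (-0.20 ± 0.084, adjusted p = 0.0512) were not called, TIPIN being called without parental vehicle replicate 1 or 2 (adjusted p down to 0.0434).

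In resistant cells, fewer members were called with oxamate. Of the 46, 10 (21.7%) were called, where 21.5% of all genes were, and without resistant oxamate replicate 3 the number was 6. A single member, POLD2, was lower (12.5% of all genes were) and 9 were higher (9.01% of all genes were). The median log2 fold change was 0.047, against -2.1e-05 over all genes, with a range of -0.077 to 0.31, and none passed the threshold of the study, where 0.274% of all genes were lower and 2.23% higher. With library size alone 0 were lower and 17 higher, with a median of 0.078, where 1179 of all 14582 genes were lower and 1753 higher. Without the 2 libraries that stood apart from their groups in nuclear RNA, 11 members were called. In resistant cells 1 of the 4 nuclear-retained RNAs was called higher with oxamate (median log2 fold change 0.77 over the 4). Their part in the changes of the members was not tested. The replicates did not overlap for 2 members in the lower and 19 in the higher direction (22.4% and 18.7% of all genes). The helicase ring made up 5 of the 9 that rose. MCM3 went from 43.1, 41.4 and 43.4 CPM to 50.3, 47.6 and 48.2 CPM, without overlap (0.19 ± 0.031, adjusted p = 0.000594), and MCM5 (0.15 ± 0.030), MCM4 (0.14 ± 0.023), MCM2 (0.10 ± 0.028, adjusted p = 0.0172) and MCM7 (0.098 ± 0.026, adjusted p = 0.0156) rose less. The calls of MCM2 and MCM7 were each lost without resistant vehicle replicate 1 or resistant oxamate replicate 3 (adjusted p up to 0.0686 and 0.0655). POLE rose from 61.7, 61.6 and 70.5 CPM to 77.5, 79.4 and 82.6 CPM (0.31 ± 0.060, adjusted p = 0.00252), and LIG1 from 21.7, 20.3 and 22.8 CPM to 26.2, 25.9 and 25.2 CPM (0.25 ± 0.044, adjusted p = 0.000988). The POLE value of 70.5 CPM was that of resistant vehicle replicate 3, which stood apart from its group in nuclear RNA. CDC6 (0.14 ± 0.037, adjusted p = 0.0149) lost its call without resistant oxamate replicate 2 (adjusted p = 0.0672). CDC45 (0.12 ± 0.041, adjusted p = 0.0426) and POLD2 (-0.077 ± 0.026, adjusted p = 0.0465) each lost theirs in 5 of the 6 fits that left out 1 library (adjusted p up to 0.133 and 0.183). No member of the origin recognition complex, polymerase alpha with primase, the clamp and its loader or RPA was called in this comparison, the smallest adjusted p among the genes named for those roles being those of POLA1 (0.10 ± 0.036, adjusted p = 0.0517, called without resistant vehicle replicate 3, adjusted p = 0.0369), PCNA (0.095 ± 0.039, adjusted p = 0.0969) and ORC1 (0.089 ± 0.040, adjusted p = 0.124).

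**Figure D4:**
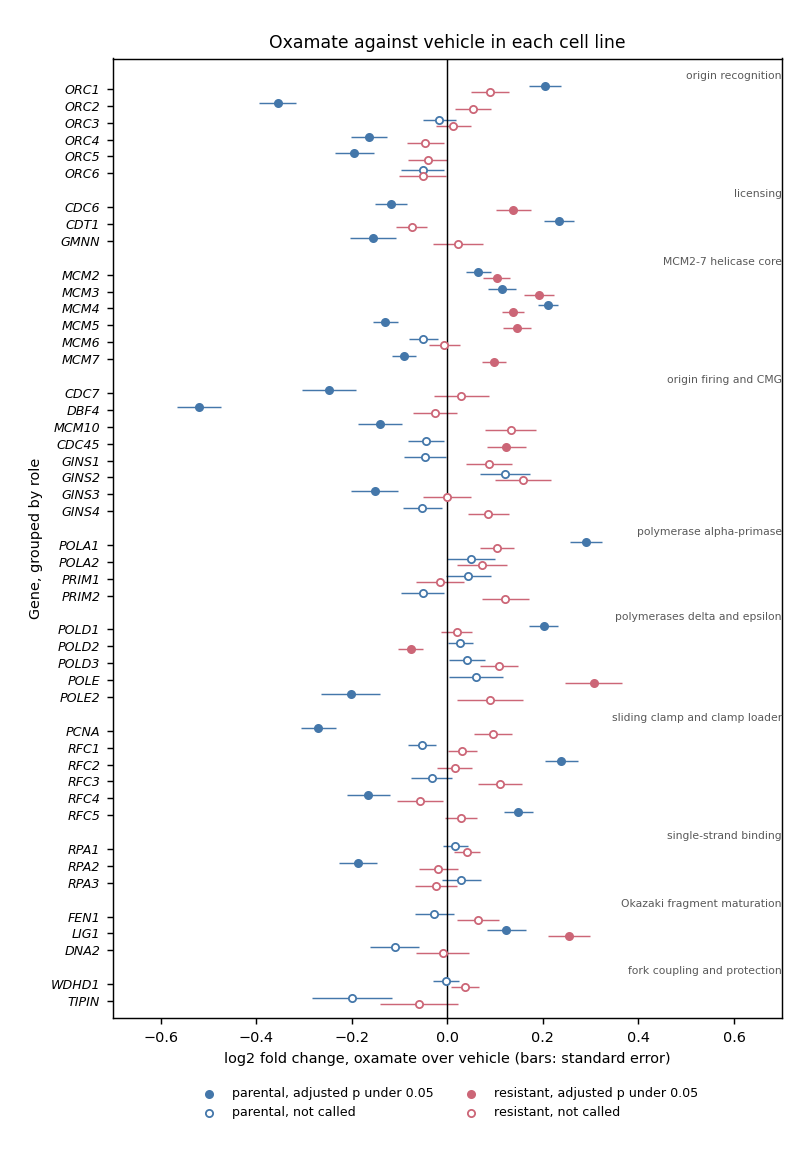
Log2 fold change of each member with oxamate against vehicle (horizontal axis), in parental cells in blue and in resistant cells in red; bars are standard errors of the fit, filled points passed an adjusted p under 0.05 and open points did not. All points lie between -0.52 and 0.31, with 25 filled points in parental cells and 10 in resistant cells.

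A contrast of the same fit tested whether the oxamate response itself differed between parental and resistant cells. The difference, resistant minus parental, was called for 20 of 46 members (43.5%), where 44.2% of all genes were called, and was above 0 for 14 (22.7% of all genes were) and below 0 for 6 (21.4%). The median difference was 0.10, against -0.0072 over all genes, with a range of -0.31 to 0.49, and none passed the threshold of the study, where 5.54% of all genes were above and 2.94% below. Scaled by totals alone, 32 were above 0 and 2 below, with a median of 0.21, where 5050 of all 14582 genes were above and 1756 below. Without the 2 libraries that stood apart from their groups in nuclear RNA, 17 members were called. The largest differences were those of DBF4 (0.49 ± 0.065, adjusted p = 1.89e-05), ORC2 (0.41 ± 0.054, adjusted p = 1.94e-05) and PCNA (0.37 ± 0.054, adjusted p = 5.49e-05), which fell in parental cells, and of CDT1 (-0.31 ± 0.044, adjusted p = 4.28e-05), which rose there. MCM5 fell in parental cells (-0.13 ± 0.027) and rose in resistant cells (0.15 ± 0.030), a difference of 0.28 ± 0.040, adjusted p = 4.78e-05. CDC6 and MCM7 likewise fell in parental and rose in resistant cells, with each response called (0.26 ± 0.050 and 0.19 ± 0.037 for the difference). RFC2 (-0.22 ± 0.050, adjusted p = 0.00188), POLA1 (-0.19 ± 0.050, adjusted p = 0.00619) and POLD1 (-0.18 ± 0.045, adjusted p = 0.00374) rose in parental cells and their differences were below 0. In contrast, MCM2, MCM3, MCM4 and LIG1 rose in both cell lines, and their differences were not called (MCM2 0.038 ± 0.039, adjusted p = 0.454, MCM3 0.078 ± 0.042, adjusted p = 0.151, MCM4 -0.072 ± 0.032, adjusted p = 0.0750, LIG1 0.13 ± 0.060, adjusted p = 0.0879). The calls of ORC5, CDC45, PRIM2, POLD2, POLE, POLE2, RFC5 and RPA2 were each lost in 1 or more of the 12 fits that left out 1 library, and the other 12 calls were kept in all of them.

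Genes outside the 46 that belong to the same pathways were taken as fixed lists. For all genes tested, the shares called were 37.3% lower and 38.4% higher with vehicle, and 39.7% and 40.6% with oxamate. The 10 genes listed as S phase cyclins, kinases and regulators of licensing include CDKN1A and CDKN1B, which inhibit cyclin-dependent kinases and restrain S phase entry. All 10 were lower in resistant cells with vehicle. With oxamate 9 were lower and 1, CDC25A, was higher. FBXO5, an inhibitor of the anaphase-promoting complex, had the smallest p of this list in both (-0.95 ± 0.030, adjusted p = 2.32e-13 and -1.07 ± 0.031, adjusted p = 3.47e-14), and the cyclin E genes CCNE1 (-0.38 ± 0.049) and CCNE2 (-0.42 ± 0.13) were lower with vehicle. Of 11 genes of deoxynucleotide supply, 9 were lower and 1 higher with vehicle, and 8 and 2 with oxamate. Among them RRM2, a small subunit of ribonucleotide reductase, was at 309.8, 310.2 and 313 CPM in parental and 146, 146 and 146 CPM in resistant cells with vehicle (-1.09 ± 0.025, adjusted p = 5.37e-15). Of 28 other replication factors, 19 were lower and 4 higher with vehicle, and 16 and 8 with oxamate, led by UHRF1 with vehicle (-0.78 ± 0.029) and by CHTF8, a clamp loader accessory that was higher, with oxamate (0.80 ± 0.030). Of 10 genes of replication-coupled chromatin assembly, 8 were lower and 1 higher with vehicle, and 5 and 2 with oxamate (RBBP4 -0.45 ± 0.025 and -0.60 ± 0.025).

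The 10 genes of the replication checkpoint were split 5 lower and 4 higher in each comparison, from HUS1 (-0.69 ± 0.037 with vehicle) to ETAA1, an activator of ATR (2.29 ± 0.069 with oxamate). Over all genes tested, 37.3% were lower and 38.4% higher with vehicle, and 39.7% and 40.6% with oxamate. Of 20 mitotic genes, 17 were lower and 3 higher with vehicle, and 11 and 6 with oxamate. AURKB was lower in both (-0.84 ± 0.024 and -0.81 ± 0.025), and MKI67, a general mark of cycling cells, was lower, with a log2 fold change of -0.31 ± 0.049, adjusted p = 2.97e-05 with vehicle and not called with oxamate (-0.025 ± 0.049, adjusted p = 0.650). Of the 13 E2F and pocket protein genes, 2 were lower and 6 higher with vehicle, and 4 and 8 with oxamate. E2F1, an activator of replication genes, was lower with vehicle, at 36.0, 38.3 and 33.8 CPM in parental and 20.0, 21.4 and 21.1 CPM in resistant cells (-0.79 ± 0.061, adjusted p = 7.71e-09), and with oxamate (-0.83 ± 0.062), and E2F3, also an activator, was higher with oxamate (1.03 ± 0.054, adjusted p = 4.05e-11). These lists were written with earlier results of the same data in view, and their counts are no independent evidence of a direction.

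**Figure D5:**
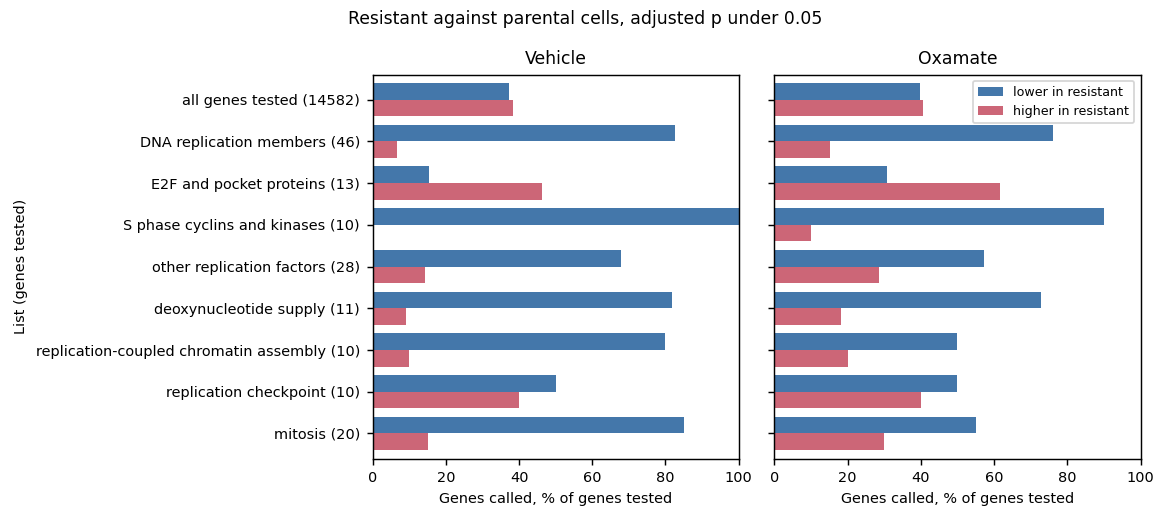
Share of genes called lower (blue) and higher (red) in resistant against parental cells, in percent of the genes tested (horizontal axis from 0), for all 14582 genes, the 46 members and the 7 related lists, with vehicle on the left and oxamate on the right. The members reach 82.6% lower with vehicle and 76.1% with oxamate, against 37.3% and 39.7% of all genes.

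The members lie on 19 chromosomes in GENCODE 29, and those lower in resistant cells with vehicle lie on 18. The part of any chromosome in the shift was not tested. The gene spans of 27 members, introns included, overlap another annotated gene and those of 13 overlap a protein-coding gene. Among them are DBF4 with SLC25A40, RFC5 with WSB2, RFC4 with EIF4A2, PRIM1 with NACA and POLD1 with AC020909.1. Whether their exons overlap was not examined, so it is not known whether the counts hold reads of the neighbour.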

How the data were processed

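The deposited file holds the expected counts of 26475 gene symbols in 12 samples, which the authors made without normalization. Per the methods of the study, mRNA was enriched with oligo(dT) beads, NEBNext Ultra libraries were sequenced, and reads were mapped to UCSC transcripts with Bowtie2 and quantified with RSEM, which divides a read among the transcripts it matches. The methods also describe STAR and featureCounts; the values that are not whole (11.6%) are those of RSEM. The processing notes of the submitters name Bowtie2 2.1.0, RSEM 1.2.15 and hg38. The treatment dose and time of the sequenced cells are not given in the sources used here. A total of 6562 symbols were at 0 in all libraries.

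Rounded expected counts were fitted with edgeR 4.0.16 (R 4.3.3) after filterByExpr and TMM, by glmQLFit with glmQLFTest on the 4 group means over all 12 libraries, with Benjamini-Hochberg adjustment over 14582 genes and a threshold of 0.05. Standard errors were derived from the fold change and its F value. The authors used DESeq2. Replicates of a group differed beyond sampling noise (chi-square per degree of freedom 2.11 to 33.3), so none was a copy. Same-numbered replicates were not paired, and r of their deviations was over 0.1 in 6 of 18 pairs. Pairs that included parental vehicle had r of both signs. Among the other groups every r was positive, up to 0.371 for replicate 3 of parental oxamate and resistant vehicle. A fit with a replicate block is given below. In simulated counts for the vehicle comparison of resistant and parental cells, 171 of 200 changed genes were recovered with 15 false calls among 14435 genes (33 of 50 at 1.25-fold, 41 of 50 at 1.5-fold). Only these 200 genes differed in the simulation, whereas 75.7% of genes were called in the data, so these rates may not hold for the data.

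The members and lists were chosen with earlier results of these data known. Members named with statistics in a comparison were, for each role, those with the smallest and the largest p and every member called against the majority; values per library are given for the smallest p of each role with vehicle. Other members named, with their values, were chosen after the values were seen. From the lists, the gene with the smallest p, E2F1, CCNE1, CCNE2, MKI67 and the nuclear-retained RNAs were named.

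Other settings tried were 3 scalings (library size alone, upper-quartile or RLE factors), a filter at a mean of 25 or none, unrounded counts, a replicate block, limma-voom (limma 3.58.1), DESeq2 1.42.0, only the 6 samples compared, libraries thinned to the smallest total, the threshold of the study and each replicate left out. The fits without the 2 libraries that stood apart from their groups in nuclear RNA were a later addition, chosen after seeing the data. Positions and transcript lengths came from GENCODE 29 and start windows from RefSeq.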

Additional observations from a re-analysis of the deposited data

Results flagged for a closer look

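The responses to oxamate differed between the cell lines for 20 members in the test of the difference itself (edgeR quasi-likelihood contrast, adjusted p under 0.05), where 44.2% of all genes did. As log2 differences, resistant minus parental, the 14 above 0 were 0.15 for ORC5, 0.17 for CDC45, 0.17 for RPA2, 0.17 for PRIM2, 0.19 for MCM7, 0.25 for POLE, 0.26 for CDC6, 0.27 for MCM10, 0.28 for MCM5, 0.28 for CDC7, 0.29 for POLE2, 0.37 for PCNA, 0.41 for ORC2 and 0.49 for DBF4. The 6 below 0 were -0.31 for CDT1, -0.22 for RFC2, -0.19 for POLA1, -0.18 for POLD1, -0.12 for RFC5 and -0.10 for POLD2. The groups of 3 libraries are too small to test for a stray sample by its gap to the others. The 2 libraries that some fits left out for their nuclear RNA were chosen after seeing the data, without such a test.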

How the results depend on the processing

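No member that was called in a comparison changed direction when a library was left out. Over the fits that left out 1 replicate, the number of members called ran from 40 to 42 for resistant against parental cells with vehicle (median log2 fold change -0.47 to -0.45), from 41 to 42 with oxamate (-0.33 to -0.29), from 22 to 28 for oxamate in parental cells (-0.048 to -0.023), from 6 (without resistant oxamate replicate 3) to 10 for oxamate in resistant cells (0.043 to 0.053) and from 15 to 19 for the difference between the responses (0.080 to 0.13). At the threshold of the study the numbers were 13, 14, 0, 0 and 0 in the same order. Upper-quartile factors moved the medians to -0.38 with vehicle, -0.22 with oxamate and 0.071 for oxamate in resistant cells, and RFC1 to 0.079 with oxamate. The fit on only the 6 samples compared moved the median with oxamate to -0.28, and the difference between responses could not be fitted that way. Library size alone moved the medians to -0.24, 0.015, -0.12, 0.078 and 0.21 and the numbers called to 17 for oxamate in resistant cells and 34 for the difference. With it, the fold change turned sign for 7 members with vehicle, 17 with oxamate, 8 for oxamate in parental cells, 7 for oxamate in resistant cells and 4 for the difference. Of these, 5, 13, 1, 0 and 1 had been called, and 1, 5, 0, 0 and 0 were then called in the opposite direction (RFC1 with vehicle, and ORC3, PRIM1, POLD3, RPA1 and FEN1 with oxamate). Among the members that the naming rule selects in a comparison, those that turned included POLA2 (0.19), POLD3 (0.040), RFC1 (0.13) and RPA2 (0.030) with vehicle. With oxamate they included GINS4 (0.31), POLA2 (0.31), POLE2 (0.15), RFC1 (0.32), RPA2 (0.30), FEN1 (0.16) and LIG1 (0.052). For oxamate in parental cells they included MCM2 (-0.0094) and RPA1 (-0.059), and for the difference POLD2 (0.0015). DESeq2 called 41, 41, 24, 8 and 14 members. Without parental oxamate replicate 3 and resistant vehicle replicate 3 together, 11 were called for oxamate in resistant cells. With the replicate block, 41, 42, 26, 12 and 20 were called. Over single named genes and all alternatives, 2063 values kept their call, 81 lost it, 44 gained one and 15 turned direction. Library totals differed between the cell lines, and thinning to the smallest total left 41 members called in each comparison of resistant with parental cells.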

Other observations

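Mitotic genes were mostly lower with oxamate in parental cells, and none of them was lower in resistant cells. Of 20 mitotic genes, 13 were lower and 0 higher with oxamate in parental cells (median log2 fold change -0.13), 0 were lower and 4 higher in resistant cells (0.036), and the difference between the responses was called above 0 for 15 and below 0 for 0. Over all genes, 30.4% were lower and 28.3% higher in parental cells, 12.5% and 9.01% in resistant cells, and the difference was above 0 for 22.7% and below 0 for 21.4%. AURKA, a kinase of the mitotic spindle poles, fell from 98.9, 100.3 and 104 CPM to 71.7, 75.3 and 69.9 CPM in parental cells (-0.48 ± 0.031, adjusted p = 3.35e-09), and its difference between the cell lines was 0.44 ± 0.043, adjusted p = 9.98e-07. Of 10 genes of replication-coupled chromatin assembly, 6 (60.0%) were lower and 2 (20.0%) higher with oxamate in parental cells, led by the histone chaperone ASF1A (-0.56 ± 0.047, adjusted p = 7.12e-08), and 0 and 3 in resistant cells.

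Of the 13 E2F and pocket protein genes, 5 (38.5%) were lower and 3 (23.1%) higher with oxamate in parental cells, shares near those of all genes (30.4% and 28.3%), with E2F3 the smallest p (-0.69 ± 0.053, adjusted p = 3.08e-08), and 1 and 1 in resistant cells, where 12.5% and 9.01% of all genes were. CDC25A, the phosphatase that activates CDK2, went from 7.56, 7.93 and 7.96 CPM to 4.09, 3.71 and 4.01 CPM in parental cells (-0.98 ± 0.060, adjusted p = 2.39e-09) and from 6.37, 6.00 and 6.38 CPM to 6.41, 6.66 and 6.81 CPM in resistant cells (0.086 ± 0.060, adjusted p = 0.330), a difference of 1.07 ± 0.086, adjusted p = 1.28e-07. ETAA1 fell in parental cells with oxamate (-1.08 ± 0.072, adjusted p = 5.66e-09), with a difference between the cell lines of 1.29 ± 0.092, adjusted p = 3.94e-08. RRM2 rose in parental cells (0.31 ± 0.024, adjusted p = 2.79e-08) and had a difference of -0.36 ± 0.035, adjusted p = 1.02e-06. All p-values here are from edgeR's quasi-likelihood test with adjustment over all genes.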
